A study of Danio rerio with 12 samples.

Results

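The genes described here are spred1, spry4, dusp5, etv5b and grb2b, an adaptor, 3 inhibitors and a target of signalling from receptor tyrosine kinases to the kinase ERK. They were taken as all probe sets that carry 1 of these symbols in the platform's annotation, which gave 9 of the 15502 probe sets tested and 5 of the 8793 genes represented. For spred1 there were 4 probe sets, for grb2b 2, and for spry4, dusp5 and etv5b 1 each. The probe sets of spred1 are called A (Dr.23460.1.S1_at), B (Dr.10038.1.S1_at), C (Dr.23377.1.S1_at) and D (Dr.23377.2.A1_at), in order of mean signal. Those of grb2b are A (Dr.7717.1.S1_at) and B (Dr.7717.2.A1_at), and the others are Dr.12410.1.S1_at for spry4, Dr.5365.1.A1_at for dusp5 and Dr.7714.1.S1_at for etv5b.

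The RNA came from cells that were sorted as endothelial cells from zebrafish embryos, per the labels. The embryos carried flk1:GFP, a transgene with which endothelial cells can be sorted by their fluorescence, and the RNA was collected at 48 hours after fertilization. There were 3 groups of 4 biological replicates, measured on 12 arrays. In the groups miR-126 MO-1 and MO-2 the embryo had received, as a single cell, 4 ng of a morpholino against processing of the precursor of miR-126, an endothelial microRNA, and these 2 oligonucleotides were independent. The control group is labelled uninjected for replicate 1, its other labels mention no injection, and no label names a control oligonucleotide, so that the morpholino's target and the injection itself cannot be told apart. Values are the log2 signals the authors obtained by RMA, a method that removes background and sets the arrays to a common scale, and the number of arrays limits their precision.

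Growth factors such as Vegf and Fgf activate receptor tyrosine kinases, and the adaptor Grb2 then brings the Ras activator Sos to the membrane, from where Ras, Raf and MEK lead to ERK. The pathway is restrained by inhibitors, among them proteins of the Spred and Sprouty families and dual-specificity phosphatases, several of which are themselves induced by ERK. In endothelial cells this pathway carries the response to Vegf, and spred1 has been described as a target of miR-126, through which the microRNA would favour ERK signalling.

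Markers of the sorted cells and of other cell types varied between arrays. Of 31 endothelial marker genes, 11 were measured (cdh5, fli1a and pecam1 were not used here), and 5 to 7 of them lay above the upper quartile of the array in the 9 arrays numbered 1 to 3, against 0 or 1 in the 3 arrays numbered 4. The endothelial score, a mean of centred log2 signals, ran from -0.66 to 0.25 in control, from -1.26 to 0.48 with MO-1 and from -0.96 to 0.59 with MO-2. Skeletal muscle markers were above the upper quartile for 15 to 22 of 22 measured genes in every array, although these genes are not those of endothelium. Their score ran from -1.71 to 0.61 in control, from -1.27 to 0.75 with MO-1 and from -0.10 to 1.22 with MO-2. Epidermal markers were above the upper quartile for 12 to 16 of 20 measured genes, and myeloid leukocyte markers for 6 to 8 of 11. These counts were 3 to 8 of 17 for neural tissue and 2 to 7 of 12 for erythrocytes. They were 3 to 5 of 12 for mesenchyme and neural crest, and 1 to 6 of 15 for liver, gut and pancreas. Scores of the liver, gut and pancreas list (15 genes) ran from -0.01 to 0.73 in control, from -0.79 to 0.21 with MO-1 and from -0.26 to 0.07 with MO-2. Mesenchyme and neural crest genes (12 measured) scored -0.17 to -0.04 in control, -0.01 to 0.18 with MO-1 and -0.09 to 0.21 with MO-2. The part of these markers in the differences below was not tested, and in sorted bulk RNA fewer cells of a type and less RNA per cell cannot be told apart. Correlations with these scores are given below for some lists only, mostly the larger ones, and so are large by selection.

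The inhibitor spred1 was measured by 4 probe sets, and no difference from control passed the test with any of them. With the brightest, probe set A, log2 signal was 7.58, 7.46, 7.72 and 7.28 in control replicates 1 to 4, 7.57, 7.67, 7.35 and 7.72 with MO-1 and 7.84, 7.86, 7.59 and 7.47 with MO-2. The groups overlapped, with 2 MO-2 arrays and no MO-1 array above every control array. The mean was 7.51 ± 0.19 in control, 7.58 ± 0.16 for MO-1 and 7.69 ± 0.19 for MO-2 (± SD of 4 arrays). The difference from control was 0.07 with MO-1 (95% interval from -0.25 to 0.38) and 0.18 with MO-2 (95% interval from -0.14 to 0.49). For the mean of both morpholinos it was 0.12 (SE 0.13), or 1.09-fold with an interval from 0.90-fold to 1.31-fold (limma, adjusted p = 0.9999). Single arrays moved this value: it was 0.04 without control replicate 4, 0.19 without control replicate 3 and 0.25 without the arrays numbered 3, where the upper bound was 1.47-fold. The interval of probe set A thus allows a modest rise, no change or a small decrease.

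The other spred1 probe sets gave differences of either sign. Probe set B averaged 6.73 ± 0.14 (control), 6.72 ± 0.32 (MO-1) and 6.58 ± 0.28 (MO-2) (± SD of 4 arrays). Probe set C was widely spread with MO-1, at 6.69, 5.60, 5.98 and 6.43 in replicates 1 to 4, against 6.53, 6.51, 6.66 and 6.29 in control and 6.25, 6.79, 6.29 and 6.32 with MO-2. Its difference was -0.32 (SE 0.22) with MO-1 and -0.08 (SE 0.22) with MO-2, and each morpholino group held arrays above and below all controls. The MO-1 value was -0.13 without MO-1 replicate 2 and -0.49 without MO-1 replicate 1. Probe set D, at 4.19 to 5.08, was below the lower quartile of the array in 12 of 12 arrays, with differences of 0.14 (SE 0.20) with MO-1 and -0.04 (SE 0.20) with MO-2. Over both morpholinos the differences of B, C and D were -0.08 (SE 0.16), -0.20 (SE 0.19) and 0.05 (SE 0.17), and none of the 4 probe sets passed (adjusted p = 0.9999 each by limma). Across the 12 arrays, which share groups and replicate numbers, Pearson's r between pairs of spred1 probe sets ran from -0.13 for A with B to 0.56 for B with D. After group and replicate number were removed, r was 0.64 for B with C, 0.91 for B with D and 0.71 for C with D. For A it was then -0.04 with B, 0.35 with C and -0.14 with D. Another r left out the 2 arrays farthest from the median of the first-named probe set, with group and number kept in. It was -0.05 for B with C, 0.60 for B with D and 0.26 for C with D. For A it was -0.28 with B, 0.07 with C and -0.36 with D. With all 12 arrays and nothing removed, 2608 pairs of probe sets for the same gene over the whole array had a median r of 0.54. Their quartiles were 0.24 and 0.76, and 12.4% were below 0. With the marker scores, spred1 probe set D had an r of 0.59 with the endothelial score, and -0.02 without the arrays numbered 4. Probe set C had an r of 0.58 (rho 0.35) with the liver, gut and pancreas score. The probes were not aligned here, so which transcript of spred1 each probe set reads is not known.

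**Figure D1:**
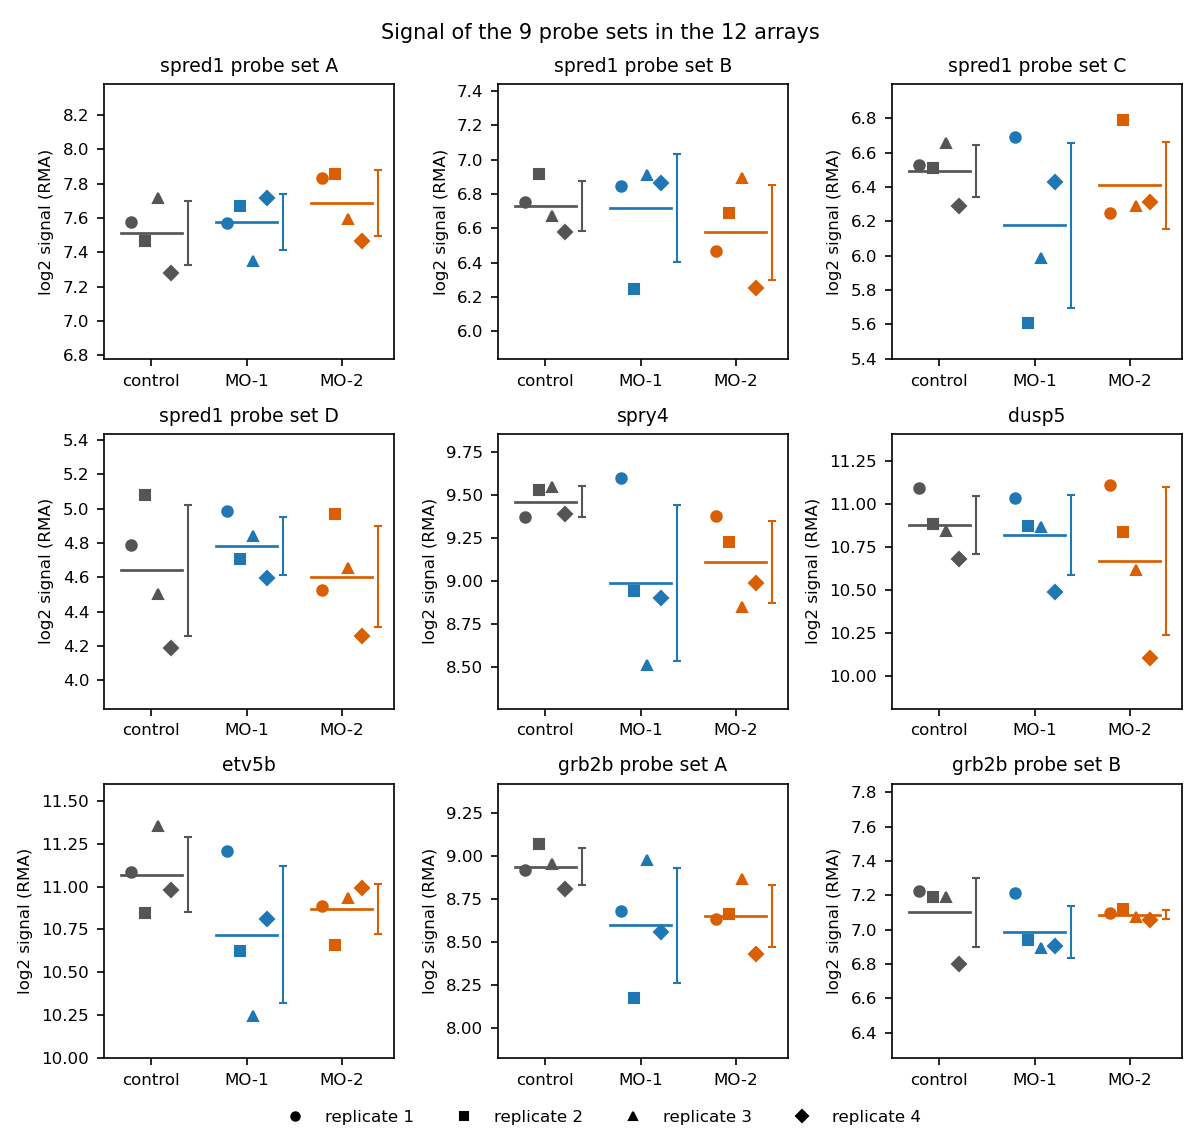
Log2 signal (vertical axis, each panel spanning the same height in log2 units) of the 9 probe sets by group, with 1 symbol per array by replicate number, horizontal lines at group means and bars of ± SD (n = 4). Control arrays of spry4 lie close together, from 9.37 to 9.55, with 6 of the 8 morpholino arrays below them, while the groups of spred1 probe set A overlap.

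The spry4 gene encodes a Sprouty protein that dampens receptor tyrosine kinase signalling and is induced by it. Its log2 signal was 9.37, 9.53, 9.55 and 9.39 in control replicates 1 to 4, 9.60, 8.94, 8.51 and 8.90 with MO-1, and 9.38, 9.23, 8.85 and 8.99 with MO-2. In 6 of 8 morpholino arrays it was below every control array, and the 2 exceptions were the replicates numbered 1, so the groups overlapped. Such a pattern, with at least 6 of 8 morpholino arrays below all controls, was seen in 1.92% of all probe sets. It was seen in 2 of the 9 described here, spry4 and grb2b probe set A. The cut of 6 equals the count of these 2 probe sets, so the share is a description and no test of them. Control averaged 9.46 ± 0.09, MO-1 8.99 ± 0.45 and MO-2 9.11 ± 0.24 (± SD of 4 arrays), so the controls were the least spread. Differences were -0.47 (95% interval from -0.91 to -0.04) with MO-1, -0.35 (-0.79 to 0.09) with MO-2 and -0.41 (-0.79 to -0.03) for both together, the last equal to 0.75-fold. None passed limma's test after adjustment (adjusted p = 1, 0.9998 and 0.9999), and unadjusted p was 0.0357, 0.106 and 0.0349. In a limma fit with replicate number added as a block, unadjusted p was 0.0174, 0.0641 and 0.0169. Adjusted p in that limma fit was 0.9995, 0.8449 and 0.8681. The same-numbered differences for both morpholinos were 0.12, -0.45, -0.87 and -0.45 in numbers 1 to 4. Leaving out arrays moved the difference of both morpholinos between -0.59, without the arrays numbered 1, and -0.26, without those numbered 3. With MO-1 alone it was -0.31 without MO-1 replicate 3. Across the 12 arrays spry4 had an r of -0.63 (rho -0.61) with the mesenchyme and neural crest score, and -0.51 without the 2 arrays farthest from the median of that score. Its r was 0.60 (rho 0.34) with the erythrocyte score, falling to 0.12 without the 2 farthest arrays, and 0.51 with the liver, gut and pancreas score. With the endothelial score spry4 had an r of 0.06, and -0.53 without the arrays numbered 4. The part of these cells in the spry4 values was not tested.

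The phosphatase gene dusp5, whose product dephosphorylates ERK in the nucleus in mammals, did not pass the test in any comparison of groups, and had its lowest signal in the arrays numbered 4. Signals were 11.10, 10.89, 10.84 and 10.68 in control replicates 1 to 4, 11.04, 10.87, 10.87 and 10.49 with MO-1, and 11.12, 10.84, 10.62 and 10.10 with MO-2. The arrays numbered 1 were the highest and those numbered 4 the lowest in each of the 3 groups, and the groups overlapped. The group means (± SD of 4 arrays) were 10.88 ± 0.17 for control, 10.82 ± 0.23 for MO-1 and 10.67 ± 0.43 for MO-2. Neither difference from control passed, at -0.06 (SE 0.20) with MO-1 and -0.21 (SE 0.20) with MO-2 (limma, adjusted p = 1 and 0.9998). In a fit with replicate number added as a block the SE of each was 0.13, and neither passed (limma, adjusted p = 0.9995 and 0.9197). The MO-2 value rested on single arrays, being -0.02 without MO-2 replicate 4 and -0.36 without MO-2 replicate 1. The replicate number, tested by limma's F test beside the group, gave an unadjusted p of 0.00747 and an adjusted p of 0.05745. With this test 0 of the 9 probe sets were called, against 12.1% of all probe sets, and 2 of the 9 had an unadjusted p under 0.05, against 28% of all. The second was spred1 probe set D, with means of 4.77, 4.92, 4.67 and 4.35 over the 3 arrays of each number (adjusted p = 0.152). Over the 12 arrays dusp5 had a Pearson r of 0.75 and a Spearman rho of 0.54 with the endothelial score. The r was 0.38 without the 2 arrays farthest from the median of the score and 0.03 without the 3 arrays numbered 4, so the relation rested on those arrays. With the epidermal score (20 genes) the r was -0.75, and -0.58 without the arrays numbered 4, where that score ran from 0.46 to 0.61 against -0.65 to 0.36 in the other 9 arrays. The r of dusp5 was 0.50 with the erythrocyte score and -0.53 with the skeletal muscle score. These were 0.72 and -0.67 without the 2 arrays farthest from the median of each score, and 0.17 and -0.11 without the arrays numbered 4.

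The transcription factor gene etv5b belongs to the Pea3 group of ETS factors and is a target of Fgf and ERK signalling in zebrafish embryos. Its log2 signal was 11.09, 10.84, 11.35 and 10.98 in control replicates 1 to 4, 11.21, 10.62, 10.24 and 10.81 with MO-1, and 10.89, 10.66, 10.93 and 10.99 with MO-2. With MO-1, 3 of 4 arrays were below every control array, and with MO-2 1 of 4 was, so the groups overlapped. Averages of 11.07 ± 0.22 for control, 10.72 ± 0.40 for MO-1 and 10.87 ± 0.15 for MO-2 (± SD of 4 arrays) gave differences of -0.34 (95% interval from -0.75 to 0.07) and -0.20 (-0.61 to 0.21). Neither passed (limma, adjusted p = 1 and 0.9998). Replicate 3 carried much of the difference with MO-1: the same-numbered differences were 0.12, -0.22, -1.11 and -0.17, and without the arrays numbered 3 the value was -0.09. Across the 12 arrays etv5b and spry4 had a Pearson r of 0.75, a Spearman rho of 0.66 and an r of 0.63 without the 2 arrays farthest from the median of spry4. After group and replicate number were removed the r was 0.78. The r of etv5b with the neural score, from 17 measured genes, was 0.63 (rho 0.56), and 0.36 without the 2 arrays farthest from the median of the score. That score ran from -0.25 to 0.82 in control, from -0.68 to 0.25 with MO-1 and from -0.41 to 0.09 with MO-2. The liver, gut and pancreas score had an r of 0.64 with etv5b, and 0.69 without its 2 farthest arrays. For the myeloid leukocyte score the r was -0.55 (rho -0.65), and -0.48 without its 2 farthest arrays. With the endothelial score etv5b had an r of -0.25, and -0.62 without the arrays numbered 4. The part of these cells in the etv5b values was not tested.

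**Figure D2:**
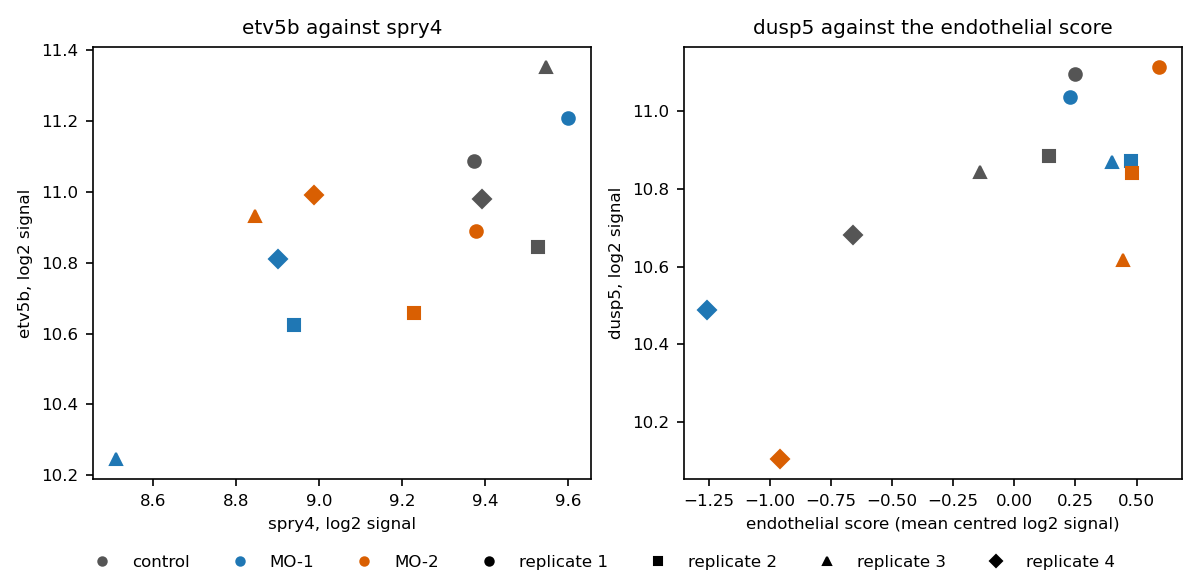
Left, log2 signal of etv5b against that of spry4; right, log2 signal of dusp5 against the endothelial score (mean centred log2 signal of 11 genes); each point is 1 of 12 arrays, coloured by group, with symbols for replicate number. MO-1 replicate 3 is lowest for both spry4 (8.51) and etv5b (10.24), and the arrays numbered 4 hold the 3 lowest endothelial scores.

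The adaptor gene grb2b was measured by a brighter and a dimmer probe set. Probe set A gave 8.92, 9.07, 8.95 and 8.81 in control replicates 1 to 4, 8.68, 8.17, 8.98 and 8.56 with MO-1, and 8.63, 8.66, 8.87 and 8.43 with MO-2. In 6 of 8 morpholino arrays it was below every control array, and the 2 exceptions were the replicates numbered 3. It averaged 8.94 ± 0.11 for control, 8.60 ± 0.33 for MO-1 and 8.65 ± 0.18 for MO-2 (± SD of 4 arrays). Differences were -0.34 (SE 0.17) with MO-1, -0.29 (SE 0.17) with MO-2 and -0.31 (SE 0.14) for both together, the last 0.80-fold with an unadjusted p of 0.0483. None passed limma's test (adjusted p = 1, 0.9998 and 0.9999). In a limma fit with replicate number added as a block, unadjusted p was 0.0447, 0.0824 and 0.0341. Adjusted p in that limma fit was 0.9995, 0.8896 and 0.9059. The same-numbered difference of both morpholinos was negative in 4 of 4 numbers, at -0.26, -0.65, -0.03 and -0.31. Replicate 2 carried much of the difference with MO-1, which was -0.20 without MO-1 replicate 2 and -0.15 without the arrays numbered 2, where both morpholinos together were at -0.20. Probe set B of the same gene did not share this difference in size: it averaged 7.10 ± 0.20 for control, 6.99 ± 0.15 for MO-1 and 7.09 ± 0.03 for MO-2 (± SD of 4 arrays), with a difference of -0.06 (SE 0.11) for both together. The r of A with B over the 12 arrays was 0.31, and 0.07 after group and replicate number were removed. The r of grb2b probe set A with spred1 probe set B was 0.76, and 0.36 without the 2 arrays farthest from the median of the spred1 probe set. After group and replicate number were removed this r was 0.89. With spred1 probe set D, below the lower quartile in 12 of 12 arrays, the r of grb2b probe set A was 0.28. It was 0.24 without the 2 arrays farthest from the median of that spred1 probe set, and 0.86 after group and replicate number were removed. The other values of grb2b probe set A after this removal were lower. They were -0.33 with spred1 probe set A, 0.49 with spred1 probe set C, -0.06 with spry4, 0.17 with dusp5 and -0.42 with etv5b. With the skeletal muscle score grb2b probe set A had an r of -0.54 and a rho of -0.69, and an r of -0.37 without that score's 2 farthest arrays. Its r with the liver, gut and pancreas score was 0.51 (rho 0.41). That r was 0.21 without the score's 2 farthest arrays and 0.69 without the arrays numbered 4. With the endothelial score grb2b probe set A had an r of 0.18, and -0.53 without the arrays numbered 4. For probe set B these were 0.39 and -0.56. The part of these cells in the grb2b values was not tested.

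Over the comparisons with control, 0 of the 9 probe sets passed limma's test at an adjusted p of 0.05 with MO-1, with MO-2 or for both together, and 0% of all 15502 probe sets did. At an unadjusted p under 0.05 there was 1 of 9 with MO-1 (spry4), against 1.11% of all probe sets, and 0 of 9 with MO-2, against 2.23%. For both morpholinos together there were 2 of 9 (spry4 and grb2b probe set A), against 1.89% of all, both lower, against 0.884% of all. When replicate number was added as a block the counts at this level were 2, 0 and 2 of 9, against 2.87%, 6.11% and 5.48% of all probe sets, and 0 passed the adjusted threshold. The mean was lower than in control for 7 of 9 probe sets with MO-1 and 8 of 9 with MO-2, against 45.3% and 48.1% of all probe sets. Their median difference was -0.11 with MO-1 and -0.15 with MO-2, where the median of all probe sets was 0.02 and 0.01. The 9 probe sets are not independent, since several belong to spred1 or to grb2b, and both comparisons use the same 4 control arrays. The genes were also chosen with earlier results of these data known, so the counts beside all probe sets are a description and no test. Some of the lower values lay close to 0, with MO-1 spred1 probe set B (-0.01) and dusp5 (-0.06). With MO-2 these were grb2b probe set B (-0.01) and spred1 probe sets D (-0.04) and C (-0.08). Each of these changed sign when some arrays were left out, as did the higher values of spred1 probe sets A and D with MO-1. None of the 9 separated the control from a morpholino group without overlap. Over all probe sets 0.323% were lower and 0.645% higher without overlap with MO-1, and 0.884% and 0.955% with MO-2.

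MO-2 was also compared with MO-1 directly, which asks whether the morpholinos differed from each other. None of the 9 probe sets passed (limma, adjusted p = 0.9999 or above), and 0 of 9 had an unadjusted p under 0.05, against 0.561% of all; 0% of all passed the adjusted threshold. The differences ran from -0.18 for spred1 probe set D to 0.23 for spred1 probe set C (95% interval from -0.23 to 0.70). For spry4 it was 0.12 (-0.31 to 0.56), for etv5b 0.15 (-0.26 to 0.56) and for dusp5 -0.15 (-0.58 to 0.29), so the intervals allow differences between the morpholinos as large as those from control.

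**Figure D3:**
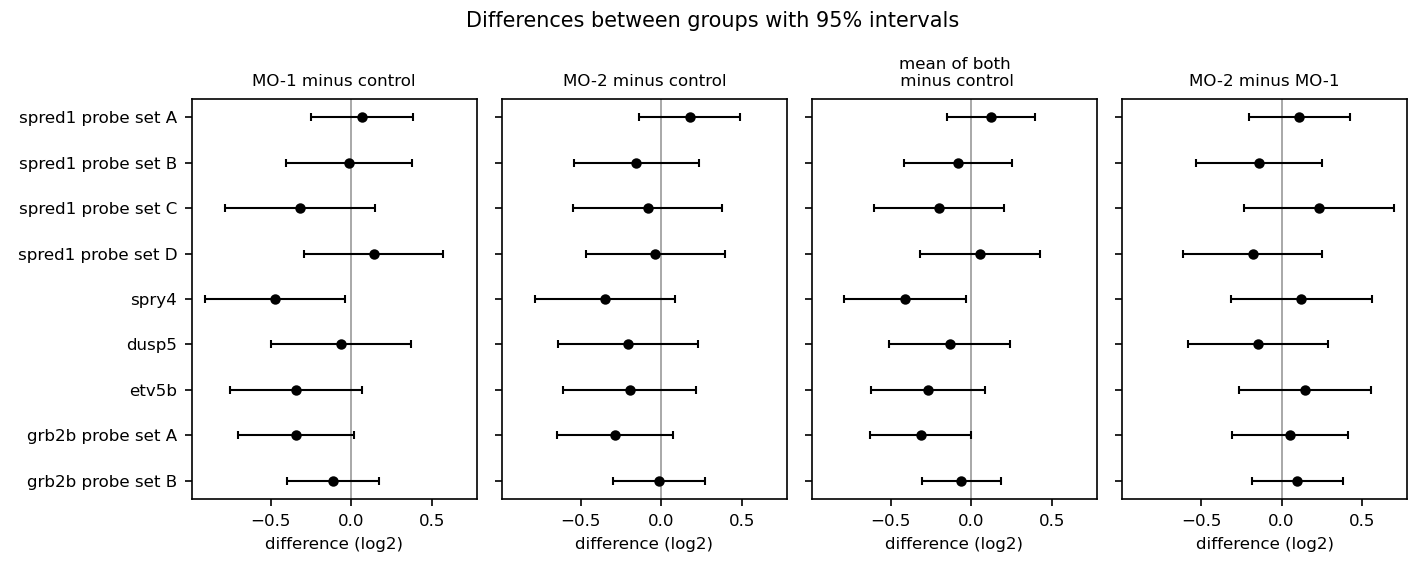
Differences of group means (log2, horizontal axis) of the 9 probe sets in 4 comparisons, with points for the difference and bars for limma's 95% interval. The intervals of spry4 with MO-1 and for both morpholinos, and that of grb2b probe set A for both, lie below 0 before adjustment, and every other interval holds 0.

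The wider pathway was described from lists of its parts, with 76 of 130 listed genes measured, each by its brightest probe set. None of the 76 genes passed limma's test in either direction with MO-1, with MO-2 or for both together. For both, 3 had an unadjusted p under 0.05 in limma (fgfr2, grb2b and spry4), against 158 of all 8793 genes (1.8%). Of these 3, grb2b and spry4 were already counted above, so only fgfr2 was added by the lists. The lists were chosen with earlier results of these data known. The list with the lowest median for both morpholinos was that of feedback inhibitors, at -0.14 with 9 of 12 genes lower, where all 8793 genes had a median of 0.02 and 44.6% lower. Taken singly, MO-1 and MO-2 gave this list medians of -0.15 and -0.16, and receptors also had -0.15 with MO-1. The list holds spred1, spry4 and dusp5, which are described above. Of its members spry4 was farthest from 0, followed by errfi1a, an inhibitor of Egf receptors, at -0.35 (SE 0.26). The phosphatase gene dusp6, also induced by Fgf and ERK in zebrafish, was at -0.17, and spry2, the other Sprouty gene measured, at 0.00. The spred1 value of 0.12, from probe set A, was the highest of the 12, and the other spred1 probe sets stood lower, at -0.08, -0.20 and 0.05. The list of transcriptional targets and effectors had a median of -0.08 with 16 of 20 lower, and etv5b at -0.27 was 1 of them. The members farthest from 0 were srfa, a serum response factor, at -0.42 (SE 0.26) and fosl2, a relative of Fos, at -0.40 (SE 0.21). The other Pea3 genes stood at -0.24 for etv4 and 0.15 for etv5a, and the early ERK target genes fosab and egr1 at -0.01 and -0.23.

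For both morpholinos together, the medians further up the pathway ran from -0.03 to 0.05. Taken singly, MO-1 and MO-2 gave the receptors medians of -0.15 and 0.02, and Ras, Raf, MEK and ERK medians of -0.10 and -0.07, where all genes were at 0.02 and 0.01. Ligands had a median of 0.05 with 5 of 14 lower, with pdgfaa at -0.30 (SE 0.16) and fgf2 at 0.19 (SE 0.14) farthest from 0. Receptors were at -0.03 with 6 of 10 lower, and the Fgf receptor genes fgfr2 at -0.41 (SE 0.18) and fgfr1a at -0.33 (SE 0.19) were farthest from 0. Endothelial receptors in this list had wide errors, as for kdrl, a Vegf receptor gene, also called flk1, at 0.20 (SE 0.50). Adaptors and Ras regulators were at 0.02 with 5 of 11 lower, where grb2b had the largest distance from 0, followed by ptpn11b, a Shp2 phosphatase gene, at 0.25 (SE 0.25). The related adaptor grb2a was at 0.00. For Ras, Raf, MEK and ERK the median was 0.01, 4 of 9 being lower, and hrasb at -0.30 (SE 0.18) and mapk3, which encodes an ERK, at -0.22 (SE 0.14) were farthest from 0.

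**Figure D4:**
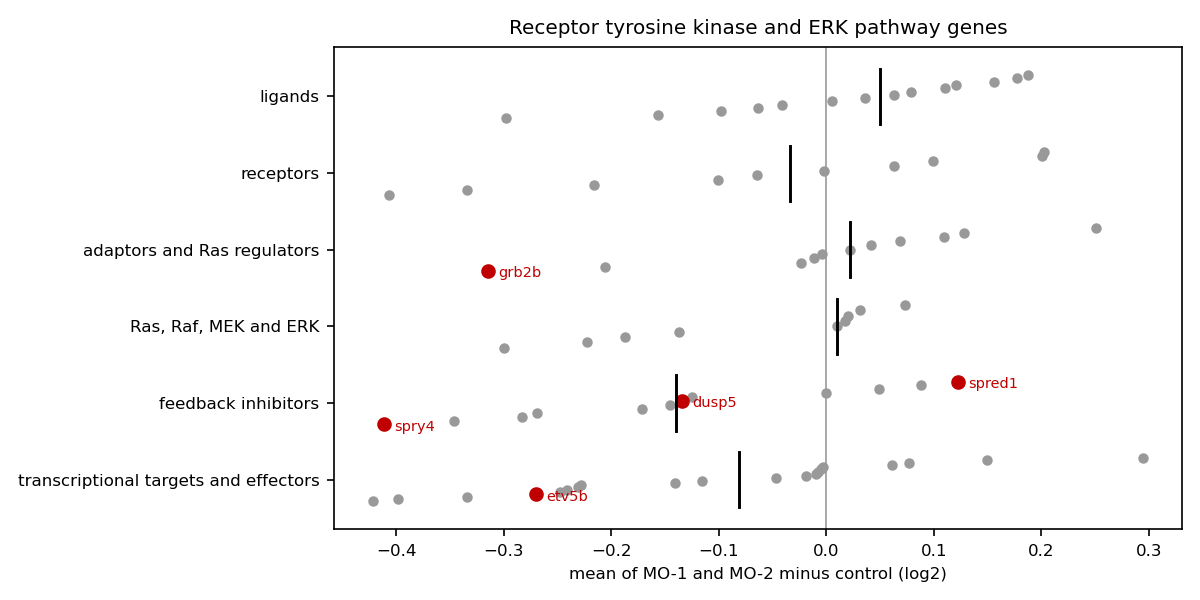
Difference of the mean of MO-1 and MO-2 from control (log2, horizontal axis) for 76 genes in 6 pathway lists, with 1 point per gene, black bars at list medians and the 5 genes described here in red. The feedback inhibitors have the lowest median, -0.14, and run from spry4 at -0.41 to spred1 probe set A at 0.12.

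The genes whose signal most resembled each of the 5 were found by Pearson's r with the brightest probe set over the 12 arrays. Each was picked as the highest among 10791 to 10794 probe sets of other genes and so is large by selection. For spred1 they were sst6.2 at 0.82, zgc:101559 at 0.82 and tspy at 0.81, the lowest top values of the 5 genes. The closest to spry4 were tgfb1a, a growth factor gene of the Tgf-beta family, at 0.90, ppp6r3 at 0.90 and pik3r3a, a regulatory subunit of PI3-kinase, at 0.89. For dusp5 these were psmb1, a proteasome subunit, at 0.95, s1pr1, the sphingosine-1-phosphate receptor of endothelium, at 0.91, and srsf1b, a splicing factor, at 0.90. After group and replicate number were removed the values for dusp5 were 0.72, 0.56 and 0.32. The values closest to etv5b were 0.94 for btg3, 0.90 for ptpra and 0.89 for yap1, a coactivator of the Hippo pathway, and after the same removal they were 0.91, 0.91 and 0.90. For grb2b they were 0.93 for lpar2b, 0.90 for rpl10a and 0.90 for ntn1a, a netrin gene. Without the 2 arrays farthest from the median of the gene in question, the 15 values ran from 0.64 to 0.91.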

How the data were processed

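Endothelial cells sorted from flk1:GFP embryos were profiled on one-colour Affymetrix zebrafish arrays after Trizol extraction and NuGen WT-Ovation Pico amplification, per the labels. What the authors deposited is 1 log2 signal per probe set and array, from RMA (Robust Multi-array Average) per the submitters' processing notes, which give no version. That the base is 2 was read from the range of values. Array medians ran from 6.80 to 6.86.

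Of 15617 probe sets, 115 array controls were left out and 15502 were tested with no filter on signal. The platform's annotation gave 1 symbol to 10795 probe sets, several to 135 and none to 4572. Symbols were updated through Entrez gene numbers, which changed none of the 9 described here. Mean signal served only to order the probe sets of a gene and to take the brightest for each pathway gene, and is no measure of relative transcript abundance.

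Groups come from the sample titles. Group differences were estimated and tested with limma 3.58.1 (R 4.3.3) in a model of group means over 12 arrays with moderated variances (13.1 degrees of freedom), two-sided, with Benjamini-Hochberg adjustment over 15502 probe sets and a threshold of 0.05. The median half-width of the 95% interval was 0.40 log2 for 4 against 4 arrays. Code was tested on simulated data. Members, gene lists and tests were chosen with earlier results of these data known. Genes were named by a rule: the 5 genes, the 3 genes with the highest r for each, and the 2 farthest from 0 in each pathway list. Others (dusp6, spry2, etv4, etv5a, fosab, egr1, kdrl and grb2a) were chosen after their values were seen.

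To see whether same-numbered arrays belong together, values were centred within groups and correlated: the 12 same-numbered pairs correlated at 0.22 to 0.63. The 36 other pairs had a median of -0.17. This is no separate evidence, since centring within groups pushes other pairs below 0 when same-numbered pairs lie above it. Because of the same-numbered values a fit with the number as block was run as well. The labels do not say what it marks.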

Additional observations from a re-analysis of the deposited data

Results flagged for a closer look

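Of 27 groups of 4 arrays (9 probe sets in 3 groups), 4 held an array far from the other 3. For independent, normally distributed values about 1 in 20 would be so. The share over all probe sets was not counted, and several of the 9 probe sets belong to the same gene. The count is thus a description, and whether it is unusual for these arrays is not known. With MO-1, spred1 probe set B was 6.25 in replicate 2 against 6.85 to 6.91 in the others. With MO-2, spred1 probe set C was 6.79 in replicate 2 against 6.25 to 6.32. In control, grb2b probe set B was 6.80 in replicate 4 against 7.19 to 7.22. With MO-1 the same probe set was 7.21 in replicate 1 against 6.89 to 6.94.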

How the results depend on the processing

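None of the 9 probe sets passed limma's test in a comparison of groups under any setting tried: the replicate number as a block, centred or quantile-normalized arrays, a filter on dim probe sets (which removed spred1 probe set D), a variance trend, array weights, only the groups compared, or arrays left out. For spry4, etv5b and grb2b probe set A, differences from control were below 0 throughout. So were those of spred1 probe set C and grb2b probe set B with MO-1, and of spred1 probe set B and dusp5 with MO-2. With MO-2, spred1 probe set A stayed above 0. The settings share most of their arrays, so a constant sign is no separate evidence. The block gave counts of 0 over all probe sets in the 4 comparisons and changed no call. Without the arrays numbered 4, 1 of all probe sets was called with MO-2 and 1 for both morpholinos, both times that of pierce1, noted after its values were seen, so that these counts ran from 0 to 1. With array weights spred1 probe set C with MO-2 turned to 0.032. Apart from leaving arrays out, the settings took spred1 probe set A with MO-2 from 0.18 up to 0.27. Its lowest unadjusted p in limma over all settings was 0.0481, and its lowest adjusted p was 0.69. Differences that changed sign when arrays were left out ran, with MO-1, from -0.057 to 0.21 for spred1 A, -0.11 to 0.20 for B, -0.0094 to 0.31 for D and -0.13 to 0.049 for dusp5. With MO-2 they ran from -0.21 to 0.0086 for spred1 C, -0.19 to 0.11 for D and -0.11 to 0.027 for grb2b B. For both together they ran from -0.19 to 0.038 for spred1 B and -0.099 to 0.20 for D. Between morpholinos they ran from -0.33 to 0.016 for spred1 B, -0.083 to 0.46 for C, -0.037 to 0.33 for spry4, -0.30 to 0.041 for dusp5, -0.035 to 0.31 for etv5b and -0.095 to 0.18 for grb2b A. For the replicate number, the probe sets called ran from 1081 to 1922 of all and from 0 to 1 of the 9, the latter being spred1 probe set D without MO-1 replicate 2. The cause of these shifts was not tested. No detection calls were used, so the lower limit of signal is not known.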
